A study of Homo sapiens with 8 samples.

Results

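The regions described here lie in 8 windows of 1 Mb beside the centromeres of 7 human chromosomes, in hg19. On chromosome 1 the window spans 121 to 122 Mb, on chromosome 6 it spans 58 to 59 Mb and on chromosome 7 it spans 61 to 62 Mb. Chromosome 8 has a lower window, 43 to 44 Mb, and an upper one, 46 to 47 Mb. The remaining windows are 51 to 52 Mb of chromosome 11, 22 to 23 Mb of chromosome 17 and 27 to 28 Mb of chromosome 19. The positions of the centromeres themselves are background and were read from no file. A listed region belonged to a window when its midpoint fell inside it, and 247 of the 1222 regions of the 4 lists did. The windows were picked with the density and heights of these same lists known. Of the 29 bins of 1 Mb with at least 10 regions over the 4 lists, 7 are among them. Their counts, spacing, heights and sharing are therefore given as a description and without a test.

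Each list holds the regions called in 1 ChIP-seq library made with an antibody to POLR3A, the catalytic subunit of RNA polymerase III. There were 2 libraries of MDA-MB-231, an established breast cancer line, and 2 of MDA-LM2, its strongly metastatic derivative. The lists differ greatly in length. Replicate 1 of MDA-MB-231 and replicate 2 of MDA-LM2 gave the long list of their line, and the other replicate of each line gave the short one. Both lines were grown in the same medium, fixed with formaldehyde and otherwise untreated, and no label describes a knockdown or added agent in either. The 4 input samples were not analysed here. The labels do not tie the replicates to separate cultures, so their spread may be technical.

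RNA polymerase III makes tRNAs, 5S rRNA and other short noncoding RNAs from small genes. Centromeres are built on alpha satellite, a tandem repeat whose monomers are often arranged in longer repeat units, and the DNA beside them carries diverged satellite and duplicated segments. A short read from such a repeat can match many places. No source used here says where reads with several matches were placed. The sequence of the windows was not analysed here, and no region was assigned to a gene or repeat.

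The windows held 126 of the 646 regions of the long MDA-MB-231 list (19.5%, exact Clopper-Pearson 95% interval 16.5 to 22.8%) and 107 of the 472 of the long MDA-LM2 list (22.7%, 19 to 26.7%). The 2 short lists had 2 of 18 in the short MDA-MB-231 list (11.1%, 1.38 to 34.7%) and 12 of 86 in the short MDA-LM2 list (14.0%, 7.42 to 23.1%). Intervals cover counting error only, and the depth behind each list is unknown. The windows were set well apart from other listed regions. The member closest to a window bound lay 20.7 kb inside it, on chromosome 17 with a height of 18 in the long MDA-LM2 list. The region outside the 8 windows closest to a bound was 2263 kb from it, also on chromosome 17, with a height of 16 and a strength score of 12.8 in the long MDA-MB-231 list.

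Between the lines, the number of listed regions in the windows did not differ beyond the spread of replicates. The means were 64.0 ± 87.7 in MDA-MB-231 and 59.5 ± 67.2 in MDA-LM2 (SD, n = 2 each), a difference of -4.50 (exact two-sided permutation p = 1.00, Benjamini-Hochberg adjusted over 2 comparisons 1.00, where the smallest possible is 0.333). As a share of each list, the means were 15.3 ± 5.94% and 18.3 ± 6.16% (SD, n = 2 each), a difference of 3.0 percentage points (exact two-sided permutation p = 0.667, adjusted 1.00). Both signs depended on single libraries. The difference in number was -66.5 when the short MDA-MB-231 list was left out and -52.0 when the long MDA-LM2 list was. Leaving out the long MDA-MB-231 list gave 57.5, and leaving out the short MDA-LM2 list gave 43.0. The difference in share became negative without the short MDA-MB-231 list (-1.19) or without the long MDA-LM2 list (-1.35). The 2 long lists, on which most of the following rests, come from different lines, so a contrast between them has no replicate and is a contrast of libraries.

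Density differed from window to window, and the order was not the same in both long lists. In the long MDA-MB-231 list the lower chromosome 8 window held the most, with 28 regions, followed by chromosome 1 with 23, the upper chromosome 8 window with 22, chromosome 11 with 20, chromosome 7 with 12, chromosome 19 with 11, and chromosomes 6 and 17 with 5 each. In the long MDA-LM2 list the chromosome 17 window came first, with 22 regions, followed by 18 and 17 in the lower and upper chromosome 8 windows, 15 on chromosome 1, 15 on chromosome 11, 10 on chromosome 7, 7 on chromosome 19 and 3 on chromosome 6. Among all 1 Mb bins with at least 1 region, whose median was 1.00 region in every list, the windows ranked between 5 and 27 of 110 bins in the long MDA-MB-231 list and between 5 and 26 of 99 in the long MDA-LM2 list. The fullest bins of those lists, with 103 and 47 regions, lay elsewhere.

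The short lists reached few windows. The short MDA-MB-231 list listed regions on chromosome 1 only. The short MDA-LM2 list listed 8 on chromosome 17, its second fullest bin, and 1 each on chromosomes 1, 6, 7 and the upper window of chromosome 8. It listed none in the lower chromosome 8 window or on chromosomes 11 and 19.

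**Figure D1:**
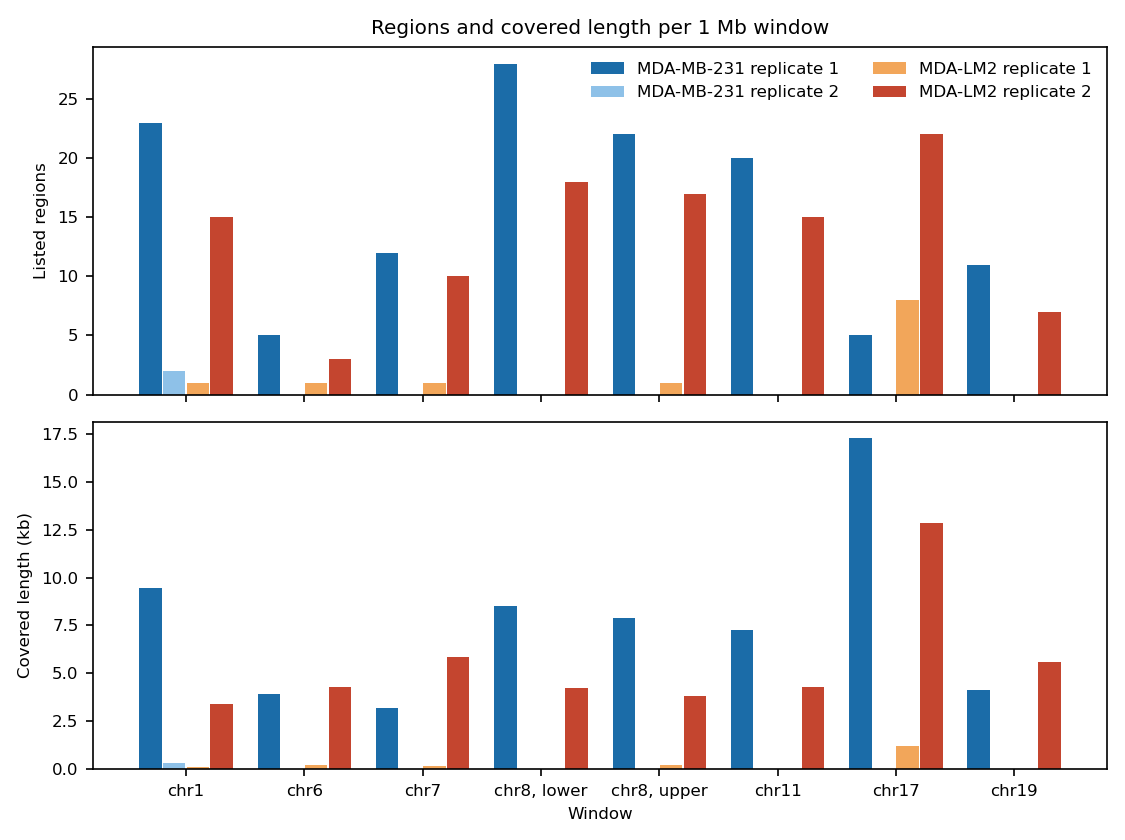
Listed regions (upper panel) and covered length in kb (lower panel) in each of the 8 windows, with 1 bar per library and no error bars because each bar is 1 list (replicate 1 is the long list of MDA-MB-231, replicate 2 that of MDA-LM2). Chromosome 17 has 5 regions in the long MDA-MB-231 list against 22 in the long MDA-LM2 list, yet the greater covered length of 17287 bp is in the long MDA-MB-231 list.

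Counts and covered length ranked the libraries differently in 4 of the 8 windows, where a stretch listed as a few wide regions in one library was listed as more numerous, narrower ones in the other. Over the 8 windows the long MDA-MB-231 list covered 61.7 kb and the long MDA-LM2 list covered 44.3 kb, while the short MDA-MB-231 list and the short MDA-LM2 list covered 0.320 and 1.89 kb. On chromosome 17 the 5 regions of the long MDA-MB-231 list covered 17287 bp and the 22 of the long MDA-LM2 list covered 12832 bp. The windows of chromosomes 6, 7 and 19 had more regions in the long MDA-MB-231 list but more covered bases in the long MDA-LM2 list, at 3922 and 4281 bp on chromosome 6, 3216 and 5857 bp on chromosome 7, and 4134 and 5577 bp on chromosome 19. No 2 neighbouring regions of a long list lay closer than 101 bp end to end, anywhere in the genome, and none was narrower than 99 bp.

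Inside each window most regions were packed into groups of at most 24.5 kb, where a new group starts after a step of over 10 kb. The most crowded were in the lower chromosome 8 window, where the long MDA-MB-231 list had 26 regions within 17.9 kb (1.5 per kb) and the long MDA-LM2 list had 7 within 4.28 kb (1.6 per kb). On chromosome 19 all 11 regions of the long MDA-MB-231 list lay within 8.39 kb, or 1.3 regions per kb, and 6 of the 7 of the long MDA-LM2 list within 8.49 kb, with the last 1 at 27890057 to 27890224. On chromosome 7, 11 of 12 and 9 of 10 lay within 9.71 and 9.68 kb. The chromosome 6 groups spanned 6.39 and 6.01 kb in the same order. In the upper chromosome 8 window the 22 regions of the long MDA-MB-231 list spanned 18.5 kb, and 16 of the 17 of the long MDA-LM2 list spanned 16.2 kb. Chromosome 1 was split. In its first group, from 121351948 on, the long MDA-MB-231 list had 13 regions within 15.7 kb and the long MDA-LM2 list had 8 within 7.03 kb. In its last group, from 121478525 on, each had 7 regions, within 7.01 and 7.0 kb. Another 3 regions of the long MDA-MB-231 list, of heights 29, 20 and 19, lay between the groups.

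Steps between neighbouring highest positions had a median of 820 bp in the long MDA-MB-231 list (118 steps within windows, 95% interval of the median 701 to 959 bp) and of 1012 bp in the long MDA-LM2 list (99 steps, 852 to 1191 bp). Outside the windows, the steps within a 1 Mb bin had medians of 1126 and 1374 bp. Among steps of at most 10 kb the medians were 796 and 964 bp in the windows and 994 and 1086 bp outside. The windows were picked with their density known, so shorter steps there are no independent result. Steps of 1 list are not replicates, and the intervals are no test against the medians outside. The shortest step of each window ran from 243 bp, in the upper chromosome 8 window, to 1075 bp, on chromosome 17, in the long MDA-MB-231 list, and from 343 bp, in the upper chromosome 8 window, to 2067 bp, on chromosome 6, in the long MDA-LM2 list. The longest steps separated groups or lone regions from each other, at 886628 and 887330 bp on chromosome 7 and 91352 and 118584 bp on chromosome 1 in the 2 long lists. On chromosome 8, in the lower window, they were 26400 and 725453 bp.

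Chromosome 11 held a regular series, which was singled out after its values were seen. In the long MDA-MB-231 list, tall and low regions alternated over its last 11 regions. Regions taller than both neighbours had their highest positions at 51582868, 51584922, 51586892, 51588947 and 51591068, with heights of 90, 78, 114, 117 and 102. They were 2054, 1970, 2055 and 2121 bp apart. The low regions between them, at 51582302, 51584240, 51586308, 51588358 and 51590435, had heights of 24, 26, 52, 48 and 50 and were 1938, 2068, 2050 and 2077 bp apart. Every tall region of this run stood above every low one.

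The long MDA-LM2 list had a highest position within 100 bp of each tall one, at 51582870, 51584940, 51586975, 51588936 and 51591060, with heights of 61, 47, 82, 76 and 61. Of the low ones it listed 3, at 51586311, 51588359 and 51590405, with heights of 36, 31 and 40, and these were 2048 and 2046 bp apart. The 2 low positions with the smallest heights in the long MDA-MB-231 list, 24 and 26, were not listed there. The last region, at 51593109 with a height of 41 in the long MDA-MB-231 list and at 51593103 with a height of 23 in the long MDA-LM2 list, followed the last tall one by 2041 and 2043 bp. The second of its tall positions was lower than the first and no taller than both neighbours, so the alternation was complete in the long MDA-MB-231 list only. Of the 15 overlapping pairs of regions on this chromosome, 13 had highest positions within 50 bp of each other and 8 within 10 bp. Runs of similar steps, also singled out once seen, were not confined to chromosome 11. On chromosome 17 the long MDA-LM2 list had successive steps of 1271, 1226, 1257 and 1271 bp. In the lower chromosome 8 window the long MDA-MB-231 list had successive steps of 979, 1001, 870, 998, 931 and 1039 bp.

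**Figure D2:**
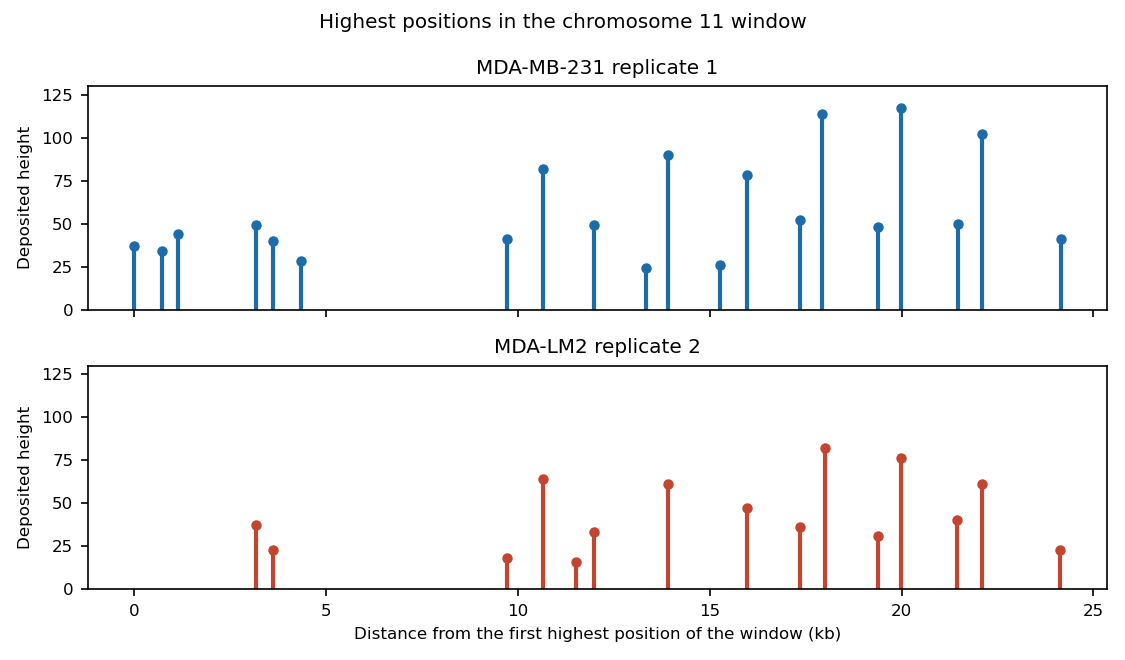
Deposited height of each listed region in the chromosome 11 window against the distance of its highest position from the first one (kb), for the long MDA-MB-231 list (top) and the long MDA-LM2 list (bottom), with 1 stem per region. Over the last 11 stems tall and low stems alternate in the long MDA-MB-231 list, and the tall stems recur in the long MDA-LM2 list.

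The windows also differed in height. Height here is the deposited pile-up at a region's highest position, with no depth correction that the values show, so it is ranked within a list only. In the long MDA-MB-231 list, 8 of the 10 tallest regions of the whole list were members, with 2 on chromosome 1 (heights 201 and 183), 2 on chromosome 7 (184 and 170), 2 on chromosome 6 (172 and 132) and 2 on chromosome 19 (150 and 132). In the long MDA-LM2 list, 4 of the 10 tallest were members, with 192 and 171 on chromosome 1, 175 on chromosome 7 and 127 on chromosome 19. The short MDA-MB-231 list listed 2 members, and their heights of 205 and 114 ranked 1 and 3 of its 18 regions. In the short MDA-LM2 list the members on chromosome 6 (27) and chromosome 17 (21) ranked 1 and 2 of 86. Ties put 16 regions of that list at rank 10 or better, of which 4 were members, 3 of them on chromosome 17. Chromosome 6 had none of the 10 tallest in the long MDA-LM2 list, where its best rank was 20, beside 21 on chromosome 11. Ranked by the authors' strength score, the members among the top 10 numbered 8, 2, 4 and 5 in the long and short MDA-MB-231 lists and in the short and long MDA-LM2 lists. The lists also hold a negative score that resembles a logarithm of p, and it did not follow height throughout. In the long MDA-MB-231 list it was minus infinity for 5 members, of heights 201, 184, 183, 172 and 170. Yet it was -10.3 at a height of 112 on chromosome 1 and -14.3 at 126 on chromosome 7. A chromosome 11 region of height 52 had -27.8.

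The dense windows of chromosome 8 were not tall. Heights ran from 14 to 41 in the lower window and from 17 to 39 in the upper one in the long MDA-MB-231 list, and their tallest regions ranked 131 and 150 of 646. In the long MDA-LM2 list they ran from 12 to 52 and from 10 to 35, and the best ranks were 48 and 93 of 472. Their median heights, 22.5 and 27 in the long MDA-MB-231 list and 17.5 and 16 in the long MDA-LM2 list, lay close to the medians of the regions outside the windows, 26 and 19. On chromosome 6, with few regions, the medians were 71.0 and 66.0, on chromosome 17 they were 75 and 27, on chromosome 19 they were 66.0 and 53.0, and on chromosome 11 they were 48.5 and 37.0. On chromosome 7 they were 41.5 and 32.0. Chromosome 1 had medians of 37 and 18 in spite of the tallest regions of both lists. Over all windows the median height was 34.0 in the long MDA-MB-231 list, at a median percentile of 68.6 of that list, and 23.0 in the long MDA-LM2 list, at 61.9. These levels helped to choose the windows and are no independent result.

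**Figure D3:**
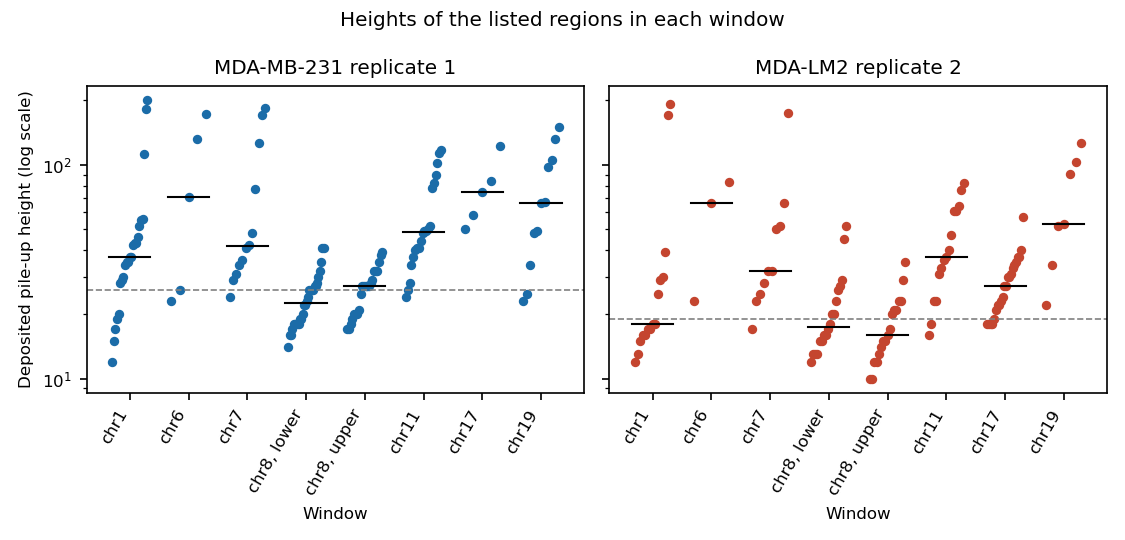
Deposited pile-up height (log axis) of every listed region in each window for the 2 long lists, with 1 point per region, ordered by height within a window, a black bar at the window's median and a dashed line at the median of regions outside the windows (26 and 19). Chromosomes 1 and 7 hold a few very tall regions, up to 201 and 192 on chromosome 1, while both chromosome 8 windows stay at or below 41 in the long MDA-MB-231 list and 52 in the long MDA-LM2 list.

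The tallest signal on chromosome 1 sat at the end of the window's last group and was held by 3 libraries. The merged stretch at 121483011 to 121484711 held regions of heights 112 and 201 in the long MDA-MB-231 list, 114 in the short MDA-MB-231 list and 192 in the long MDA-LM2 list. Their highest positions were at 121484105 and 121484542, at 121484109 and at 121484643. The last merged region, at 121485378 to 121485543, had heights of 183, 205 and 171 in the same libraries, and in each of the 3 the highest position was the first base of the region, at 121485405, 121485378 and 121485410. The 3 regions ended at 121485536, 121485543 and 121485535. The short MDA-LM2 list listed neither stretch. Its only member on chromosome 1 was at 121357780 to 121357904, with a height of 11. That region and the long MDA-LM2 list region at 121357910 to 121358055 (height 17) did not overlap, and both fell within the region of the long MDA-MB-231 list at 121357751 to 121358185 (height 55). The first group of the window had no such tall region, with heights from 12 to 56 in the long MDA-MB-231 list and from 15 to 39 in the long MDA-LM2 list. Its median heights were 37.0 and 18.0, beside 27.0 and 20.0 over those whole lists.

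On chromosome 7 the height was concentrated within about 2 kb. In the long MDA-MB-231 list the regions at 61968663 to 61968905, 61969416 to 61969704 and 61970076 to 61970600 had heights of 170, 184 and 126. The long MDA-LM2 listed the same stretch as 1 region, at 61968560 to 61970692, with a height of 175. The remaining members of the group had heights from 24 to 77 and from 17 to 66. A lone region far from the group was listed in both, at 61080474 to 61080663 with a height of 29 and at 61080578 to 61080772 with a height of 28. The short MDA-LM2 list listed no member of the group, and its own region at 61374283 to 61374441, of height 10, was found in no other list.

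On chromosome 6 the 2 long lists and the short MDA-LM2 list met in the merged stretch at 58776106 to 58780232. The long MDA-MB-231 list held 3 regions there, with heights of 132, 71 and 172, and the long MDA-LM2 list held 2, with 66 and 83. The wider of these, 3414 bp, was the widest region of the long MDA-LM2 list. The short MDA-LM2 list had 1 narrow region, at 58779387 to 58779575, whose height of 27 was the greatest of its list. The highest positions of the tallest regions were at 58779146, 58779161 and 58779392 in the long MDA-MB-231 list, the long MDA-LM2 list and the short MDA-LM2 list.

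On chromosome 19 the 2 long lists had some highest positions in common and others apart. The tallest region had its highest position at 27732139 in the long MDA-MB-231 list (height 150) and at 27732136 in the long MDA-LM2 list (127). The next tallest, with heights of 132 and 103, had theirs at 27738543 and 27738477. Lower ones were at 27733895 and 27733896 (heights 49 and 34) and at 27740213 and 27740212 (48 and 52). Of the 10 overlapping pairs in this window, 5 had highest positions within 50 bp. Among the regions of the long MDA-MB-231 list without so close a counterpart were those with highest positions at 27733222, the third tallest of the list there, and 27737632 (height 66), and the lone MDA-LM2 region with its highest position at 27890176 (22) had none either. Neither of the short lists had a region there.

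Chromosome 17 held the broadest signal. The 5 regions of the long MDA-MB-231 list ran almost end to end over 18.2 kb and covered 95% of it, and those of 6288 and 4709 bp were the widest of the whole list. Their heights were 58, 75, 122, 84 and 50. The long MDA-LM2 list broke the same stretch into 21 regions that covered 69.9% of 18.1 kb, with heights from 18 to 57. The short MDA-LM2 list listed 8 narrow regions there, with heights from 10 to 21 and widths from 117 to 184 bp, which covered 7.96% of 15.2 kb. All 8 lay within regions of the long MDA-MB-231 list, and all 1207 of their bases were also listed in the long MDA-LM2 list.

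One highest position on chromosome 17 recurred closely in 3 libraries, and others in 2. The long MDA-MB-231 list, the short MDA-LM2 list and the long MDA-LM2 list had highest positions at 22248407, 22248403 and 22248400, with heights of 75, 16 and 37. The tallest region of each long list there peaked at 22253216 (height 122) and 22253208 (57). A further pair of the long lists lay at 22261593 (84) and 22261586 (40), where the short MDA-LM2 list had its nearest highest position at 22261104 (10). Another pair, in the 2 MDA-LM2 lists only, lay at 22254733 in the short list (16) and 22254744 in the long one (30). The region at 22020583 to 22020750, of height 18, was listed in the long MDA-LM2 list alone. The short MDA-MB-231 list listed nothing in the window.

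**Figure D4:**
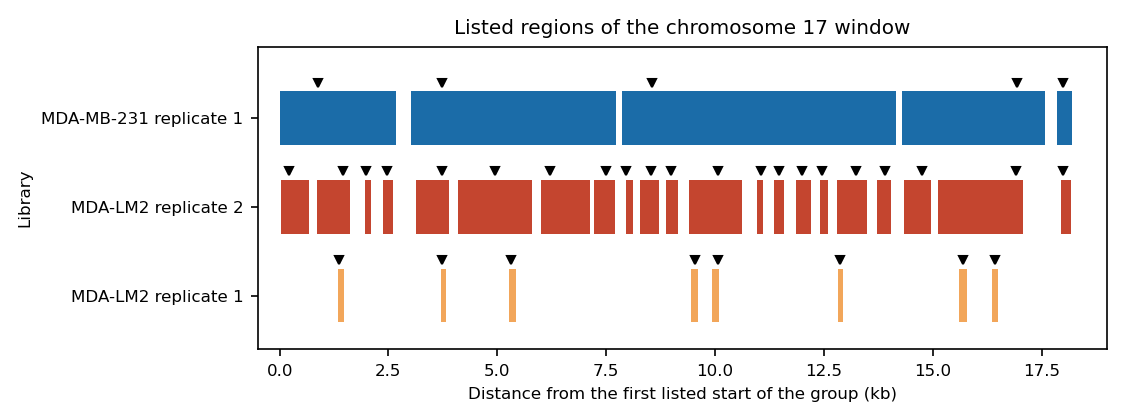
Listed regions of the chromosome 17 window as bars along the distance from the first listed start (kb) in 3 libraries, with triangles at the highest positions; the region of the long MDA-LM2 list at 22020583 lies outside the plotted span and the short MDA-MB-231 list has none. The 5 bars of the long MDA-MB-231 list fill 95% of the stretch that the long MDA-LM2 lists as 21 regions and the short MDA-LM2 list as 8.

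Regions were called found in another list when they overlapped by at least 1 bp. Of the 107 members of the long MDA-LM2 list, 88 were found in the long MDA-MB-231 list (82.2%, exact 95% interval 73.7 to 89.0%), where the share over its whole list was 66.5% and over the regions outside the windows 61.9%. Of the 126 members of the long MDA-MB-231 list, 78 were found in the long MDA-LM2 list (61.9%, 52.8 to 70.4%), beside 46.7% of the whole list and 43.1% outside the windows. The windows were chosen on these lists, so no test of this difference was made. Counted in bases, 32046 bp were listed in both, which was 52.0% of the bases of the long MDA-MB-231 list and 72.4% of those of the long MDA-LM2 list in the windows. Shared bases were counted in the windows only, so no share over the whole lists stands beside these. A stricter rule matched fewer regions, and it was run for window members only. Under a reciprocal overlap of 50%, 35 regions of each were matched, 27.8% and 32.7% of their members.

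Sharing was uneven among the windows. All 15 regions of the long MDA-LM2 list on chromosome 1 and all 15 on chromosome 11 were found in the long MDA-MB-231 list. So were 21 of 22 on chromosome 17, 6 of 7 on chromosome 19 and 14 of 17 in the upper chromosome 8 window. Chromosome 7 had 7 of 10 and chromosome 6 had 2 of 3. The 21 on chromosome 17 are part of the 88 found over all windows. There the 5 regions of the long MDA-MB-231 list ran almost end to end, so an overlap of 1 bp was nearly unavoidable. Of the 21 overlapping pairs there, 4 had highest positions within 50 bp of each other, and the median offset was 1528 bp. The lower chromosome 8 window had the smallest share in both directions, with 8 of 18 regions of the long MDA-LM2 list (44.4%, 21.5 to 69.2%) and 8 of 28 of the long MDA-MB-231 list (28.6%, 13.2 to 48.7%). Only 990 bp were common to both there, 11.6% of the bases of the long MDA-MB-231 list. Part of this window was filled by the long MDA-LM2 list alone. It listed 7 regions within 4.28 kb, from 43092764 to 43097048, with heights of 52, 16, 45, 29, 26, 15 and 15, while the first region of the long MDA-MB-231 list in the window began at 43793140.

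**Figure D5:**
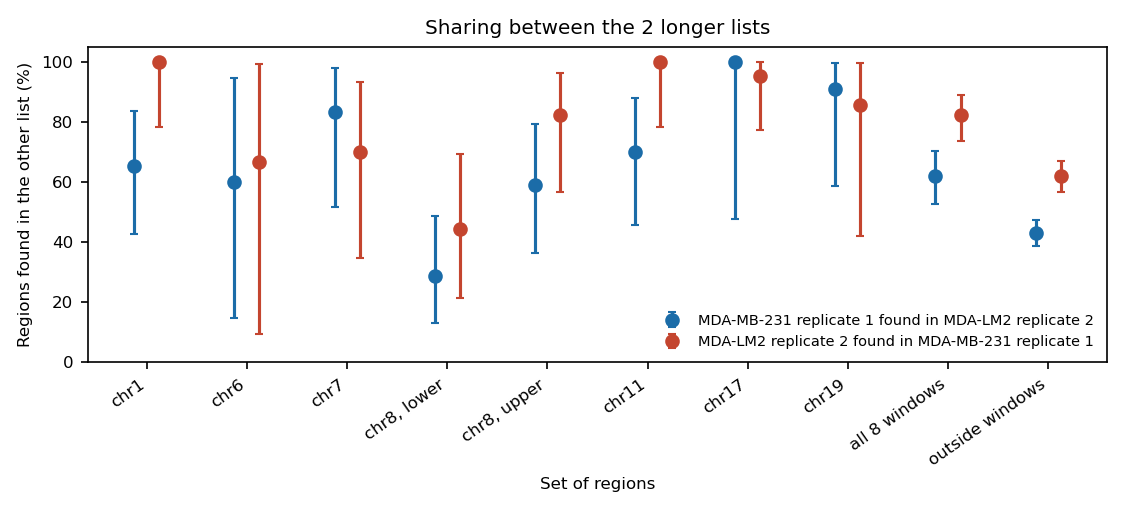
Percent of the regions of 1 long list that overlap a region of the other by at least 1 bp, per window, over all 8 windows and outside them, with exact 95% binomial intervals as bars (counting error only). All 15 regions of the long MDA-LM2 list on chromosomes 1 and 11 were found in the long MDA-MB-231 list, and the lower chromosome 8 window is lowest in both directions, at 28.6 and 44.4%.

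Pooled over the windows, members that the other long list lacked had lower median heights than those it held. In the long MDA-MB-231 list, the 48 members not found in the long MDA-LM2 list had heights from 12 to 46 with a median of 24.0, and the 78 found had heights from 18 to 201 with a median of 43.0. In the long MDA-LM2 list, the 19 not found in the long MDA-MB-231 list had heights from 10 to 52 with a median of 18.0, and the 88 found had heights from 10 to 192 with a median of 27.0. The ranges overlap in both lists. The lower chromosome 8 window, with 20 of the 48 and 10 of the 19, differed little between them in median height. There the medians were 22.5 for members not found and 22 for those found in the long MDA-MB-231 list, and 17 and 18.5 in the long MDA-LM2 list, whose tallest member not found (52) stood above the tallest found (27). The tallest member without a partner, at 52, was on chromosome 8 at 43092764 to 43093506 in the long MDA-LM2 list, and 1 region of equal height, on chromosome 7 at 61976145 to 61976433 in the same list, also had none. Highest positions of overlapping members were within 50 bp in 46 of 98 pairs (46.9%) and within 10 bp in 27. Outside the windows they were within 50 bp in 98 of 242 pairs (40.5%).

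By an overlap of 1 bp, most members of the short lists were found in the long ones. In the short MDA-LM2 list, 8 of the 12 members lay on chromosome 17, and all 8 were found in both long lists. An overlap with the long MDA-MB-231 list was nearly unavoidable there, because its regions ran almost end to end. Of the 12 members of the short MDA-LM2 list, 11 were found in the long MDA-MB-231 list (91.7%, exact 95% interval 61.5 to 99.8%), where the whole list had 84.9%, and 10 in the long MDA-LM2 list (83.3%, 51.6 to 97.9%), where it had 65.1%. These shares depended on the overlap rule. They were 0% in both under a reciprocal overlap of 50%, and 25% and 41.7% with highest positions within 200 bp. The whole-list shares under these 2 rules were not computed. Both members of the short MDA-MB-231 list were found in each long list, beside 88.9% of its whole list in either case, and neither was found in the short MDA-LM2 list, beside 55.6%. With 2 members, its intervals span 15.8 to 100% and 0 to 84.2%. No member was found in both short lists, also counted from the MDA-LM2 side (0 of 12, beside 11.6% of that list). From the side of the long lists, 2 of 126 members of the long MDA-MB-231 list were found in the short MDA-MB-231 list (1.59%, exact 95% interval 0.193 to 5.62%, beside 2.48% of the whole list). In the short MDA-LM2 list, 7 of 126 were found (5.56%, 2.26 to 11.1%, beside 9.75%). For the long MDA-LM2 list it was 2 of 107 in the short MDA-MB-231 list (1.87%, 0.227 to 6.59%, beside 3.39%) and 8 of 107 in the short MDA-LM2 list (7.48%, 3.28 to 14.2%, beside 11.2%). Members are part of the whole list and are not replicates, so these 4 intervals were not used as a test against its share.

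Merging overlapping regions of all lists gave 136 stretches in the windows, of which 68 were held by 1 library, 59 by 2, 9 by 3 and none by all 4. All 59 held by 2 libraries were held by the 2 long lists. The 9 held by 3 libraries comprised 3 on chromosome 1, 1 on chromosome 6, 1 in the upper chromosome 8 window and 4 on chromosome 17. The one on chromosome 8, at 46841981 to 46843052, had heights of 32, 13 and 20. These ranked 236 of 646 in the long MDA-MB-231 list, 23 of 86 in the short MDA-LM2 list and 227 of 472 in the long MDA-LM2 list. Chromosomes 7, 11 and 19 and the lower chromosome 8 window had no stretch held by more than 2 libraries. No stretch was held by both libraries of 1 line and neither of the other. With 2 and 12 members in the short lists, few such stretches were possible. The same counts outside the windows are not given here. Stretches held by at least 3 libraries were 9 of 136 in the windows, 48 of 652 elsewhere and 57 of 788 in all. Both lines held 68 stretches, 50.0% of those in the windows, against 222 of 652 (34.0%) elsewhere. Without the long MDA-MB-231 list the 68 fell to 2, and without the long MDA-LM2 list to 7, so the count rests on these 2 libraries.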

How the data were processed

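POLR3A ChIP-seq of 2 libraries each of MDA-MB-231 and MDA-LM2 was analysed from 1 list of regions per library, and no list pools replicates. Per the submitters' processing notes, the tools and build were hg19, Bowtie2 2.2, bedtools and DESeq, with no role given. Which caller and threshold made the regions, and how inputs entered, is not stated in any source used here. All lists had 11 unnamed columns, whose meaning was read from the values. The deposited strength score has no stated definition, and a further deposited score, negative throughout, resembles a logarithm of p. The deposited signal is a whole-number pile-up height. The deposited percent column places the highest position within the region and fits inclusive ends. Scores and heights describe regions within 1 list only. Read depth is unknown.

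Regions were assigned to windows by midpoint. Overlap, merging and steps were computed in Python 3.11.15 with numpy 2.4.6, pandas 2.3.3 and scipy 1.17.1, and tested on simulated data. The counts and shares of the lines were compared by an exact permutation test over libraries, and nothing else was tested. Alternatives were wider windows, assignment by overlap, other overlap rules, the strongest 50% of each list, steps between midpoints, ranks by score, leaving out each library and pairing by replicate number. Named regions followed a rule: in each window the greatest height and highest score of each list, stretches held by at least 3 libraries, or by both libraries of 1 line and neither of the other, the regions nearest the bounds, and the extreme steps. Any further region was singled out once its values were known, as was the split into groups at steps over 10 kb. The windows and the rule were chosen with earlier results of these data known. No coordinate was converted between builds.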

Additional observations from a re-analysis of the deposited data

How the results depend on the processing

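Widening the windows by 500 kb and assigning regions by any overlap changed no value for which they were run. Neither could, because no region lay near enough to a bound to change its membership. The difference between the lines in listed regions became 0.5 with the strongest 50% of each list, and ranged from -66.5 to 57.5 with 1 library left out. The difference in share ranged from -1.35 to 7.36 percentage points with 1 library left out. With the replicate numbers as pairs (replicate block), the differences are the same by construction. They were -4.50 regions (exact sign-flip permutation p = 1.00) and 3.0 percentage points (p = 1.00), where the smallest possible p is 0.5. The deviations of same-numbered libraries over the 8 windows correlated at -0.76, so same-numbered libraries did not deviate together. With the numbers crossed, a pairing added after the data were seen, the differences were, again by construction, -4.50 and 3.0.

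Sharing depended on the overlap rule, and the other rules were run for window members only. With a reciprocal overlap of 50%, the long MDA-LM2 list was found in the long MDA-MB-231 list for 32.7% of members and the reverse for 27.8%, while the short MDA-LM2 list was found in neither long list (0 of 12 in each). With highest positions within 200 bp, these shares were 56.1% and 47.6%, and those of the short MDA-LM2 list were 25% in the long MDA-MB-231 list and 41.7% in the long MDA-LM2 list. With the strongest 50% of each list, the short MDA-LM2 list was found in the long MDA-MB-231 list for 100% of 10 members. Stretches held by both lines numbered 35 with the reciprocal rule and 42 with the strongest 50%, and 2 to 68 with 1 library left out. Those held by at least 3 libraries numbered 1 with the reciprocal rule, 4 with highest positions within 200 bp, and 0 to 7 with 1 library left out. Median steps in the strongest 50% were 1060 bp in the long MDA-MB-231 list and 1256 bp in the long MDA-LM2 list, where fewer regions leave wider steps. Unknown depth limits every comparison of list lengths.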
